A study of Mus musculus with 7 samples.

Results

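The genes described here encode assembly factors of the large (60S) ribosomal subunit, proteins that build the subunit and then leave it. They were taken by symbol from a list of 44 genes, of which 43 have a row among the 23366 gene rows of each library; Noc2l was not analysed here. Liver RNA of C57BL/6 mice, a common inbred strain, was compared between young adult mice of 3 months (n = 4) and old mice of 21 months (n = 3), and the labels give no treatment, genotype, sex or feeding state. Polyadenylated RNA was enriched and sequenced with its strand kept. Whether each library is a different mouse is not stated in the labels, and a p-value therefore reflects only how far these libraries spread, part of which may be technical.

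Ribosome assembly starts in the nucleolus, where RNA polymerase I transcribes a long precursor that is folded, modified and cut while ribosomal proteins join it. The large-subunit particle then passes into the nucleoplasm, where ATPases strip off early factors and the internal spacer is removed, and is exported to the cytoplasm, where the last placeholders are released. In liver this machinery supplies the ribosomes that make plasma proteins, and it is known to be raised when hepatocytes grow. Guided by these steps, the 43 genes were sorted into 30 nucleolar, 9 nuclear and 4 cytoplasmic factors. The sorting involved choices, on which the counts by step depend. The export adaptor Nmd3 was counted as cytoplasmic, and Wdr74, which shares a module with nucleolar factors, as nuclear.

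All 43 genes were detected in every library, with 16 to 668 counts per gene and library, and all 43 passed the filter on low counts. At 3 months their mean TPM, a level scaled for transcript length, ran from 2.36 for Tex10 to 56.2 for Eif6, with a median of 15.4. Libraries held 4724687 to 11143125 expected counts. Signs of library quality were read from the same tables. The row of the ribosomal RNA precursor (Rn45s) took 18.7% to 25.6% of a library, with overlapping ages. The row of Lars2, the gene of a mitochondrial tRNA synthetase, was handled with Rn45s as a ribosomal RNA row. Its share was not read as the level of that gene. It took 1.33% to 1.56% at 3 months and 2.55%, 1.63% and 2.09% in 21-month replicates 1, 2 and 3, so its share was higher in every old library. The median shortfall of effective length, a sign of fragment length, was 34.4 to 38.8 bases at 3 months and 35.4, 30.9 and 21.4 bases in 21-month replicates 1, 2 and 3.

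The summed level of the 43 genes was lower in old livers. In CPM, counts scaled to 1e+06 counts per library, the sum was 871, 903, 891 and 913 in 3-month replicates 1 to 4 and 658, 622 and 686 in 21-month replicates 1 to 3. The ages did not overlap, and the mean went from 895 ± 17.8 (SD, n = 4) to 655 ± 32.1 (SD, n = 3), a difference of -26.8%. Replicate 1 of the 21-month group was below every 3-month library as well. Its shortfall lay within the 3-month range, but its Lars2 share (2.55%) was the highest of all libraries. The part of library quality in the difference was not tested. In whole liver, fewer cells of a type and less RNA per cell cannot be told apart.

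Single genes were tested with edgeR's quasi-likelihood test over all 11251 genes that passed the filter, with Benjamini-Hochberg adjustment and a threshold of 0.05. Of the 43 assembly factors, 22 were lower at 21 months, against 5.86% of all genes tested, and 0 were higher, against 5.47% of all genes. At an unadjusted p under 0.05, 29 were lower and 0 higher in edgeR, against 13.9% and 12.7% of all genes. DESeq2 called 19 lower (4.75% of all genes) and 0 higher (5.32%), and limma voom 27 (9.94%) and 0 (8.74%). With the rows Rn45s and Lars2 removed, edgeR called 20 lower (5.31% of all genes) and 0 higher (6.14%). The log2 fold change (21 months minus 3 months) was below 0 for 41 of the 43 (40 with RLE or library-size scaling and 34 on the TPM scale), against 50.2% of all genes, and its median was -0.54, against 0.00 over all genes. Every 21-month library lay below every 3-month library for 28 of the 43, against 12.8% of all genes tested, and above it for 0, against 11.3%. Falls that passed ran from 1.32-fold to 2.46-fold, and 5 of the 22 were at least 2-fold.

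**Figure D1:**
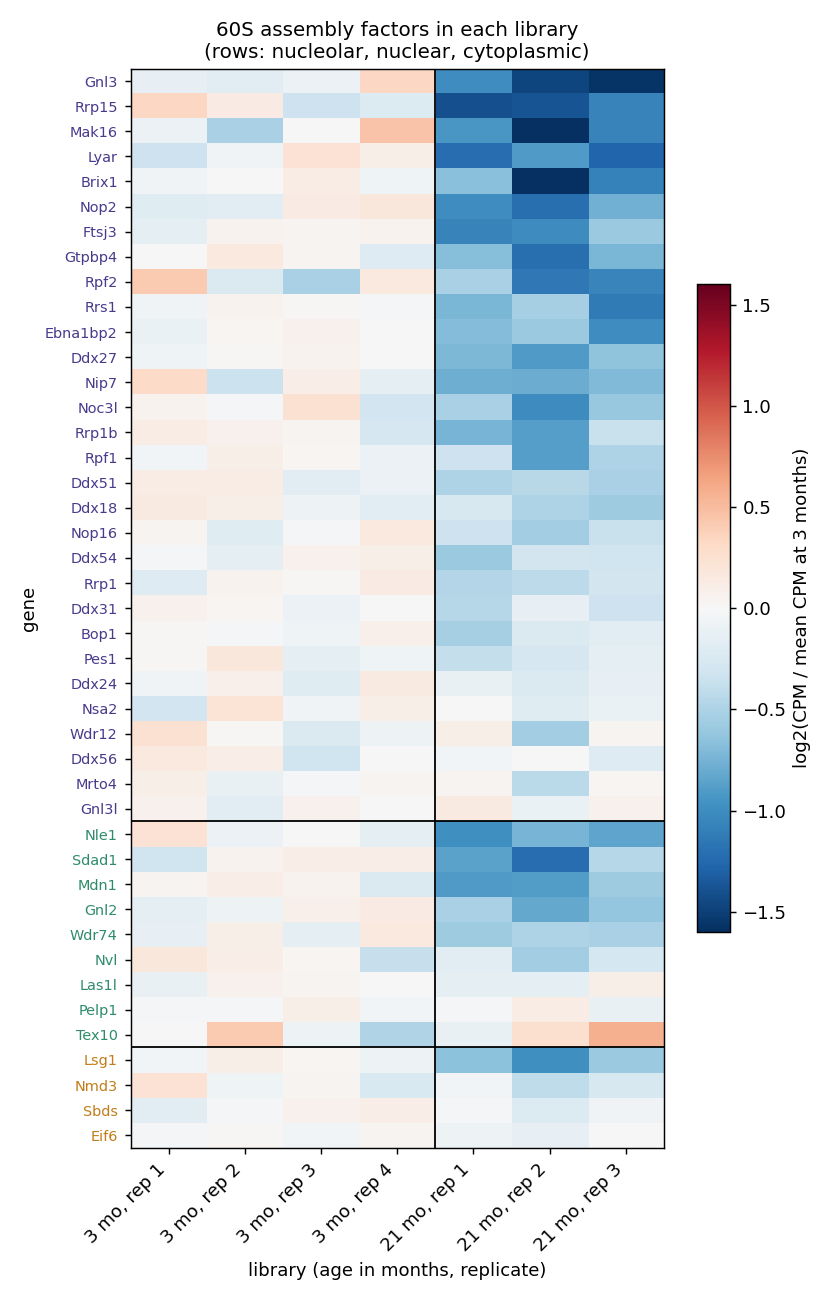
Each row is a gene and each column a library; colour gives log2 of the CPM over the gene's mean CPM at 3 months, blue lower and red higher, with black lines between ages and between the nucleolar, nuclear and cytoplasmic steps. The 3 columns of 21 months are blue for most nucleolar genes, and near white for Eif6, Sbds, Pelp1, Las1l and Gnl3l.

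By step, 16 of 30 nucleolar, 5 of 9 nuclear and 1 of 4 cytoplasmic factors were lower, against 5.86% of all genes tested. In each step 0 were higher, against 5.47% of all genes tested. The median log2 fold change was -0.59 for the nucleolar, -0.54 for the nuclear and -0.15 for the cytoplasmic factors. Summed over a step, nucleolar factors went from 650 ± 15.6 to 459 ± 19.1 CPM, nuclear factors from 142 ± 5.88 to 106 ± 8.13 CPM and cytoplasmic factors from 103 ± 1.84 to 89.8 ± 5.97 CPM (SD, n = 4 and 3). In these sums the old libraries lay below all young ones at each step. Of the cytoplasmic genes only Lsg1 (18.4 to 11.1 CPM) did so by itself, and Nmd3, Eif6 and Sbds overlapped between ages. Whether the steps differ from each other was not tested.

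**Figure D2:**
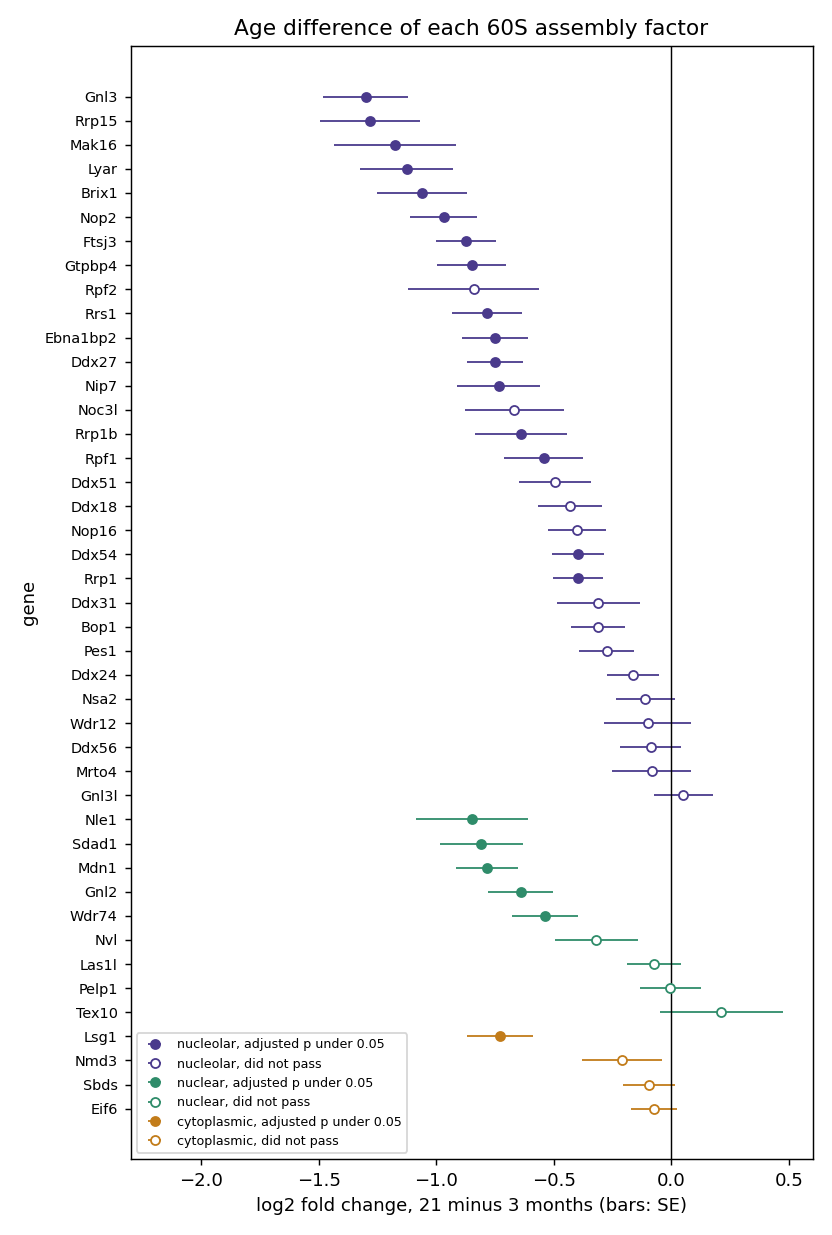
Each point is the log2 fold change of a gene, 21 minus 3 months, with its SE as a bar, coloured by step; filled points passed the threshold and open points did not. The filled points run from -1.30 for Gnl3 to -0.40 for Ddx54 and Rrp1, and 1 of 4 cytoplasmic points, Lsg1, is filled.

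The start regions of the genes were compared because many of them were lower at 21 months, and shared control was not tested. RefSeq promoter windows of the build GRCm38.p6, from 250 bases before to 50 after a start, matched 35 of the 43 genes by symbol, while the counts were made on mm9. The hexamer CACGTG, the E-box bound by MYC, occurred in 9 of 35 genes (25.7%), against 12% of tested genes with a window. The ETS core CCGGAAG, searched like the others on both strands, occurred in 14 of 35 (40%), against 20.5%. The NRF1 motif was in 0 of 35 (2.5% of tested genes), the YY1 motif in 1 (1.95%), CCAAT in 10 (43.2%) and the GC box GGGCGG in 26 (68.4%). In the members' windows 1 placement of a motif overlapped another. Split by the age test, the ETS core was in 9 of 18 genes that were lower and 5 of 17 that did not pass, and the E-box in 4 of 18 and 5 of 17. A match is a description of letters and not a binding site.

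The stretches below show the 120 bases before the start, along the gene's own strand, with E-box and ETS core matches in capitals (CTTCCGG is the ETS core on the other strand). They are the 6 genes that were lower and hold a match in that stretch, then Gnl3, which had the largest fall and holds neither, and Nmd3, which did not pass and holds an E-box. The motifs were chosen with the age results known, and the length of the stretches and the genes shown were chosen after the matches were seen.
Nop2, chr6:125131763-125131882, + strand: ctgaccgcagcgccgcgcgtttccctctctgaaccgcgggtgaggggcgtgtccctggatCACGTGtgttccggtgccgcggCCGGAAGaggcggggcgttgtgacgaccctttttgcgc
Brix1, chr15:10485938-10486057, - strand: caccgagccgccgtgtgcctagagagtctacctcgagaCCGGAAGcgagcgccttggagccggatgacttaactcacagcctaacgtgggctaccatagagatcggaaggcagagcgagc
Lsg1, chr16:30587590-30587709, - strand: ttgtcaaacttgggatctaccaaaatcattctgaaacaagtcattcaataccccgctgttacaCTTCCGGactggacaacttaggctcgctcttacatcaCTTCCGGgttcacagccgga
Nip7, chr8:107056757-107056876, + strand: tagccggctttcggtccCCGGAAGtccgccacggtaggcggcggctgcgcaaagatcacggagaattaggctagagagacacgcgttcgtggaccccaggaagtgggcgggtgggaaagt
Wdr74, chr19:8735719-8735838, + strand: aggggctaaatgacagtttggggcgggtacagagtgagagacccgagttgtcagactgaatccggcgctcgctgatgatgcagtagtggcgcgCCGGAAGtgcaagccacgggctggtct
Ddx54, chr5:120613010-120613129, + strand: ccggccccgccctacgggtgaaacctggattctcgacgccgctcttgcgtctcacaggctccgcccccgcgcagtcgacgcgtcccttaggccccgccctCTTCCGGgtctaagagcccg
Gnl3, chr14:31019132-31019251, - strand: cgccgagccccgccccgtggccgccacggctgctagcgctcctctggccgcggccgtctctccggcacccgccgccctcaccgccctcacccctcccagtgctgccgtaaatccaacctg
Nmd3, chr3:69721935-69722054, + strand: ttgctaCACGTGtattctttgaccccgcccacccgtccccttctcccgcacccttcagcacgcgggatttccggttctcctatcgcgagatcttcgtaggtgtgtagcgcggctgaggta
Nop2 carries both motifs, the E-box starting 60 bases and the ETS core 38 bases before the start (positions -60 and -38). Lsg1 has 2 ETS cores, at -57 and -20, both on the other strand. In Brix1, Nip7, Wdr74 and Ddx54 the ETS core starts at -82, -103, -27 and -20.

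Among the nucleolar factors the GTPase Gnl3 (nucleostemin), a protein of growing and stem cells, had the largest fall. Its level was 17.7, 17.2, 18.2 and 24.3 CPM in the young libraries, in the order of replicates, and 9.76, 6.98 and 6.54 CPM in the old ones, an order kept for every gene below. The ages were well apart, with a log2 fold change of -1.30 ± 0.18 SE (edgeR adjusted p = 0.000653), a 2.46-fold fall. Gtpbp4, the GTPase known as Nog1 in yeast, stood at 25.2, 28.3, 26.1 and 21.9 CPM at 3 months and at 15.9, 11.03 and 15.2 CPM at 21 months. Its fall was 1.80-fold (log2 fold change -0.85 ± 0.15 SE, edgeR adjusted p = 0.00238), with no overlap. Gnl3l, the close relative of Gnl3, did not pass and the ages overlapped: 19.5, 16.6, 19.4 and 18.7 CPM at 3 months and 20.5, 17.2 and 19.4 CPM at 21 months (log2 fold change 0.05 ± 0.13 SE, edgeR adjusted p = 0.851).

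The ratio of Gnl3 to Gnl3l within a library does not depend on scaling. It was 0.907, 1.04, 0.938 and 1.30 at 3 months and 0.476, 0.407 and 0.337 at 21 months, a 2.57-fold lower ratio in the old libraries. This ratio and 3 more, for other pairs, were chosen after the values were seen and are given as descriptions, with no test.

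Both RNA methyltransferases were lower. Nop2, which methylates cytosine in the large ribosomal RNA, stood at 26.6, 27.1, 33.2 and 34.6 CPM at 3 months and at 15.3, 13.1 and 17.8 CPM at 21 months. That is a 1.96-fold fall (log2 fold change -0.97 ± 0.14 SE, edgeR adjusted p = 0.000911). Ftsj3, the counterpart of the yeast ribose methyltransferase Spb1, stood at 41.4, 48.1, 47.7 and 48.0 CPM and at 22.2, 23.0 and 30.8 CPM, a 1.83-fold fall (log2 fold change -0.87 ± 0.13 SE, edgeR adjusted p = 0.000911). In both genes the highest old library was well below the lowest young one. The promoter stretch of Nop2 shown above is the one with both motifs.

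Of 15 scaffold and 5S-loading factors of the nucleolus, 10 were lower and 0 higher, against 5.86% and 5.47% of all genes tested. Their median log2 fold change was -0.73. Rrp15, needed for early processing of the large-subunit precursor, stood at 11.9, 10.3, 7.48 and 8.11 CPM at 3 months and at 3.55, 3.63 and 4.52 CPM at 21 months. Its fall of 2.43-fold (log2 fold change -1.28 ± 0.21 SE, edgeR adjusted p = 0.0018) came close to that of Gnl3. Lyar, a nucleolar zinc finger protein, stood at 7.48, 9.09, 11.1 and 10.1 CPM and at 4.04, 5.03 and 3.92 CPM (2.18-fold lower, log2 fold change -1.13 ± 0.20 SE, edgeR adjusted p = 0.0027). The old values of Lyar did not reach the lowest young one. Brix1 stood at 15.5, 16.1, 17.6 and 15.4 CPM and at 10.1, 5.03 and 7.61 CPM, a 2.09-fold fall (log2 fold change -1.06 ± 0.19 SE, edgeR adjusted p = 0.00309) in which 21-month replicate 2 was lowest. Ebna1bp2, known as Ebp2 in yeast, stood at 17.0, 18.6, 19.2 and 18.3 CPM and at 11.3, 12.2 and 9.16 CPM, a 1.68-fold fall (log2 fold change -0.75 ± 0.14 SE, edgeR adjusted p = 0.00373).

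Rrs1 and Rpf2 act together in placing the 5S ribosomal RNA with its proteins on the particle. Rrs1 fell from 19.2 ± 0.660 to 11.2 ± 2.25 CPM (edgeR adjusted p = 0.00407). Rpf2, at 4.93 ± 1.39 and 2.69 ± 0.663 CPM, had a log2 fold change of -0.84 ± 0.28 SE and did not pass (edgeR adjusted p = 0.0633), with overlapping ages. Mak16, Rpf1 and Rrp1 share a module on the outer face of the particle with Wdr74. Mak16 fell 2.26-fold (edgeR adjusted p = 0.0108), Rpf1 1.46-fold (0.0487) and Rrp1 1.32-fold (0.0286), and Wdr74, a nuclear factor here, fell 1.45-fold (0.0232). Nip7, which binds near Nop2, fell 1.66-fold (edgeR adjusted p = 0.0153), and Rrp1b, the relative of Rrp1, 1.56-fold (0.0454).

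The ratio of Rrp1b to Rrp1 within a library overlapped, with 0.113 to 0.187 in young and 0.108 to 0.143 in old libraries. Nop16 and Noc3l did not pass, by a narrow margin (edgeR adjusted p = 0.0502 and 0.0516), at log2 fold changes of -0.40 and -0.67, with no overlap of the ages. Nsa2 and Mrto4, the latter a placeholder for the stalk protein of the subunit, overlapped and did not pass (log2 fold changes -0.11 and -0.08). The 2 values of Mrto4 in TPM were 20.4 at 3 months and 20.5 at 21 months.

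Of the 7 DEAD-box helicases, enzymes that unwind RNA on the particle, 2 were lower and 0 higher, against 5.86% and 5.47% of all genes. All 7 log2 fold changes were below 0, against 50.2% of all genes. On the TPM scale or with the effective-length covariate it was 6 of 7, with Ddx56 above 0. Ddx27 stood at 24.5, 26.1, 26.7 and 25.6 CPM at 3 months and at 15.6, 13.7 and 16.5 CPM at 21 months. Its young values lay close together, and the fall was 1.68-fold (log2 fold change -0.75 ± 0.12 SE, edgeR adjusted p = 0.00144). Ddx54, the helicase with the highest mean TPM at 3 months (27.5), fell 1.32-fold (edgeR adjusted p = 0.0311). Ddx51 and Ddx18 narrowly did not pass (edgeR adjusted p = 0.0505 and 0.0541), with no overlap of the ages, at log2 fold changes of -0.49 and -0.43. Ddx31 (-0.31), Ddx24 (-0.16) and Ddx56 (-0.09) did not pass.

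None of the 3 PeBoW genes passed, a count near the share over all genes tested (5.86% lower, 5.47% higher). PeBoW is the complex of Pes1, Bop1 and Wdr12 that is needed to mature the large ribosomal RNA. Bop1 stood at 35.8, 34.4, 33.8 and 37.2 CPM at 3 months and at 24.3, 30.2 and 31.0 CPM at 21 months (log2 fold change -0.31 ± 0.11 SE, edgeR adjusted p = 0.0942). The ages of Bop1 did not overlap, whereas those of Pes1 (-0.28 ± 0.12 SE, edgeR adjusted p = 0.144) and Wdr12 (-0.10 ± 0.18 SE, edgeR adjusted p = 0.781) did. At an unadjusted p under 0.05 in edgeR, 2 of the 3 were lower, against 13.9% of all genes. In the alternative fits, DESeq2 and limma voom included, 0 of the 3 passed.

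**Figure D3:**
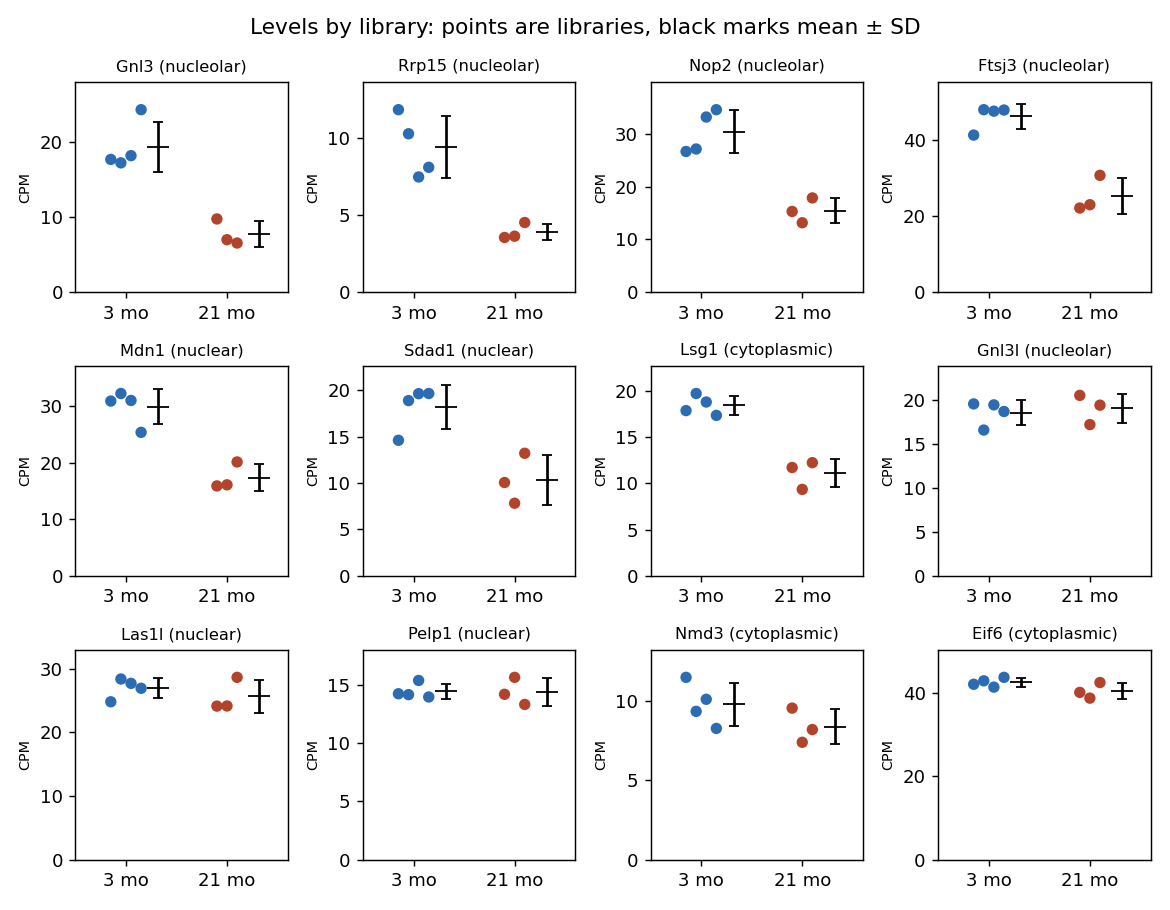
Each panel is a gene, with CPM on the vertical axis from 0, blue points for the 4 libraries of 3 months, red points for the 3 libraries of 21 months, and the mean ± SD in black beside them. The ages are apart in Gnl3, Rrp15, Nop2, Ftsj3, Mdn1, Sdad1 and Lsg1 and overlap in Gnl3l, Las1l, Pelp1, Nmd3 and Eif6.

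Among the 9 nuclear factors, the ATPase Mdn1 (midasin), which has the longest transcript of the 43, pulls early factors off the particle. It stood at 30.8, 32.2, 30.9 and 25.3 CPM at 3 months and at 15.9, 16.1 and 20.1 CPM at 21 months. The fall was 1.72-fold with no overlap (log2 fold change -0.78 ± 0.13 SE, edgeR adjusted p = 0.002), and the call was lost on the TPM scale (limma adjusted p = 0.112). Nle1, the factor through which Mdn1 grips the particle, fell 1.80-fold (edgeR adjusted p = 0.0337) from 4.68 ± 0.559 CPM. Nvl, the ATPase that releases Wdr74, did not pass (log2 fold change -0.32 ± 0.18 SE, edgeR adjusted p = 0.267). Gnl2, a GTPase that holds the place later taken by Nmd3, fell 1.56-fold (edgeR adjusted p = 0.00866), and Sdad1, known in yeast for a role in export, 1.75-fold (0.00903).

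The complex of Las1l, Pelp1 and Tex10, which cuts the internal spacer between the large-subunit RNAs and binds Mdn1, had 0 of 3 genes lower and 0 higher. Over all genes tested the shares were 5.86% and 5.47%, so counts of 0 among 3 genes are near them. Las1l, the endonuclease, stood at 24.8, 28.4, 27.7 and 26.9 CPM at 3 months and at 24.1, 24.2 and 28.7 CPM at 21 months (log2 fold change -0.08 ± 0.11 SE, edgeR adjusted p = 0.732). Pelp1 and Tex10 gave log2 fold changes of 0.00 ± 0.13 SE and 0.21 ± 0.26 SE (edgeR adjusted p = 0.991 and 0.657), and their ages overlapped as well. At an unadjusted p under 0.05 the count was 0 too, and 0 of the 3 passed in any alternative fit, DESeq2 and limma voom included. The ratio of Mdn1 to Las1l within a library was 0.940 to 1.24 at 3 months and 0.657 to 0.701 at 21 months, 1.64-fold lower. Nol9, the kinase that works with Las1l, is not among the 43. It was lower, from 28.9 to 16.4 CPM (edgeR adjusted p = 0.00105), so the complex was not unchanged in every gene.

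Of the 4 cytoplasmic factors, Lsg1 was lower. This GTPase removes the export adaptor Nmd3 once the particle has left the nucleus. It stood at 17.9, 19.7, 18.8 and 17.4 CPM at 3 months and at 11.7, 9.36 and 12.2 CPM at 21 months, a 1.66-fold fall with no overlap (log2 fold change -0.73 ± 0.14 SE, edgeR adjusted p = 0.00427). Nmd3 itself stood at 11.5, 9.35, 10.1 and 8.28 CPM and at 9.56, 7.40 and 8.21 CPM, overlapping between ages (log2 fold change -0.21 ± 0.17 SE, edgeR adjusted p = 0.476). The ratio of Lsg1 to Nmd3 was 1.56 to 2.11 at 3 months and 1.23 to 1.49 at 21 months.

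Eif6 keeps the large subunit from joining the small one until it is released, and Sbds, the gene affected in Shwachman-Diamond syndrome, takes part in that release. Eif6 stood at 42.2, 43.0, 41.5 and 43.8 CPM at 3 months and at 40.2, 38.8 and 42.6 CPM at 21 months (log2 fold change -0.07 ± 0.10 SE, edgeR adjusted p = 0.688). Sbds stood at 28.5, 31.5, 33.4 and 34.2 CPM and at 31.3, 27.4 and 30.7 CPM (-0.10 ± 0.11 SE, edgeR adjusted p = 0.636). In both the ages overlapped. Their mean TPM was 56.2 and 58.1 for Eif6 and 42.6 and 43.1 for Sbds at 3 and 21 months, among the highest of the list.

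Leaving out each library in turn gave fits with fewer samples. In them 15 of the 22 genes were called every time, and 7 were not. Nle1 was lost in all 7 such fits (edgeR adjusted p = 0.0522 to 0.106), Rpf1 and Rrp1b in 6 (0.0793 to 0.163 and 0.0568 to 0.131), Rrp1 and Ddx54 in 5 (0.0672 to 0.083 and 0.0586 to 0.0858) and Wdr74 in 3 (0.0714 to 0.0858). Rpf1 passed in 2 of the 16 alternatives, and was also lost with RLE scaling (edgeR adjusted p = 0.0535), library-size scaling (0.0766), no filter (0.0546), the rows Rn45s and Lars2 removed (0.0551) and DESeq2 (0.107). Library-size scaling ended the calls of Rrp1, Rrp1b, Ddx54 and Nle1 too (edgeR adjusted p = 0.0843, 0.075, 0.084 and 0.0532), DESeq2 those of Rrp1b and Nle1 (0.095 and 0.0806), and removal of the Rn45s and Lars2 rows that of Rrp1b (0.0513). The call of Nip7 failed when 21-month replicate 3 was left out (edgeR adjusted p = 0.0589). With the replicate number as a block, a fit without 3-month replicate 4, which has no partner, the calls of Rpf1 (edgeR adjusted p = 0.0665), Rrp1 (0.0626), Ddx54 (0.0639), Nle1 (0.0544) and Wdr74 (0.0754) were lost and those of Noc3l (0.0369) and Ddx18 (0.0463) were gained, so that 19 were lower, against 4.54% of all genes, and the nuclear count went from 5 to 3.

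The shortfall of effective length lay below the 3-month range in 21-month replicates 2 and 3. With the shortfall of effective length as a covariate, 8 of the 43 were lower, against 1.36% of all genes, and 0 higher, against 1.59%. They were Gnl3, Nop2, Ftsj3, Rrp15, Lyar, Ddx27, Mdn1 and Sdad1 (edgeR adjusted p = 0.00313 to 0.047), so 6 nucleolar, 2 nuclear and 0 cytoplasmic factors. Lsg1 had an adjusted p of 0.0536 there (edgeR), and 1 of the 4 cytoplasmic factors was below an unadjusted 0.05. The median log2 fold change of the 43 was -0.54 with the covariate as without it, while the median SE rose from 0.14 to 0.20. Without 21-month replicate 3, whose shortfall was smallest, 15 of the 43 were lower, against 2.2% of all genes.

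**Figure D4:**
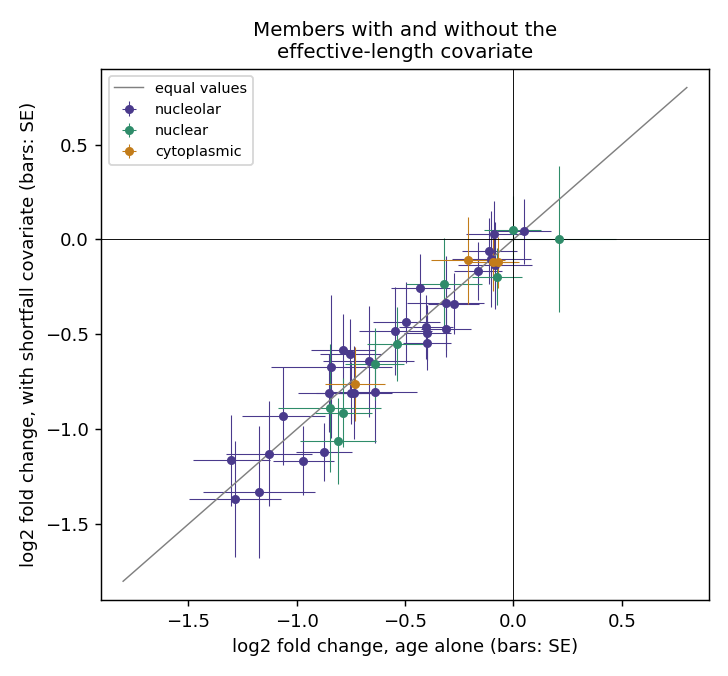
Each point is a gene; the horizontal axis gives its log2 fold change from age alone and the vertical axis the value with the effective-length shortfall as a covariate, both with SE bars, and the grey line marks equal values. Points lie along the line, with a median of -0.54 on both axes, and the vertical bars are longer.

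The levels above are relative to all scaled counts. On the TPM scale, tested with limma on log2(TPM + 0.5), the median of all genes lay at 0.11, and 74.9% of all calls were higher, against 48.3% in CPM. There 15 of the 43 were lower, against 2.48% of all genes, and 0 higher, against 7.39%. The median of the 43 was -0.39, a value not corrected for that shift. The calls of Mdn1 (-0.55, limma adjusted p = 0.112), Sdad1 (-0.65, 0.0578), Rpf1 (-0.45, 0.0809), Rrp1 (-0.27, 0.216), Rrp1b (-0.43, 0.216), Ddx54 (-0.27, 0.234) and Wdr74 (-0.39, 0.0773) were lost on that scale. The sum of 8 hepatocyte markers was 52417 to 65769 CPM at 3 months and 70161 to 73713 CPM at 21 months, without overlap. Its members moved both ways, since albumin (Alb) rose and Apoa1 fell, and the part of this difference in the result was not tested.

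Markers of dividing cells gave no call in either direction. Of 16 such genes 8 could be tested, and 0 were lower and 0 higher, against 5.86% and 5.47% of all genes tested. Counts of 0 among 8 genes are near those shares. The sum of the 16 was 34.1 to 46.5 CPM at 3 months and 41.3 to 70.6 CPM at 21 months. Sums overlapped between ages for macrophage (223 to 381 and 139 to 423 CPM), endothelial (141 to 245 and 103 to 223 CPM), stellate (166 to 230 and 196 to 286 CPM), bile duct (46.1 to 64.1 and 44.6 to 47.6 CPM) and T and NK cell markers (2.43 to 4.01 and 3.35 to 8.38 CPM). B and plasma cell markers did not overlap (3.08 to 4.45 and 9.07 to 43.4 CPM), led by Igj. Of the tested markers of these lists, Lyve1 and Sox9 were lower and Dcn and Igj higher. No marker of these lists was at 0 in every library, and the part of these cells in the result was not tested.

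A second list of 30 factors of the large subunit, none of them among the 43, was examined in the same libraries. It too was chosen with earlier results of these data known, so it is not an independent check. Of the 30, 12 were lower and 0 higher, against 5.86% and 5.47% of all genes tested. At an unadjusted p under 0.05 in edgeR, 22 were lower and 0 higher, against 13.9% and 12.7%. The median log2 fold change was -0.43. The smallest adjusted p values belonged to Nol9, the polynucleotide kinase that works with Las1l (28.9 to 16.4 CPM, edgeR adjusted p = 0.00105), Ppan (19.5 to 8.19 CPM, 0.0018), Llph (19.4 to 10.4 CPM, 0.00292) and Surf6 (17.8 to 11.03 CPM, 0.00696). Of the cytoplasmic factors in that list, named for their role after their values were seen, Dnajc21 was lower (log2 fold change -0.67, edgeR adjusted p = 0.0278). Zfp622 (-0.43, edgeR adjusted p = 0.0712) and Efl1, listed as Eftud1 (-0.26, 0.347), the GTPase that acts with Sbds, did not pass, nor did the export receptor Xpo1 (0.14, 0.666).

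Lists of neighbouring steps gave the following counts in the same test, where 5.86% of all genes were lower and 5.47% higher. At an unadjusted p under 0.05 in edgeR those shares were 13.9% and 12.7%. The counts higher in these lists lie below the share of all genes. Of 51 small-subunit factors, 20 were lower and 1, Imp3, higher, with a median of -0.46. Of 17 core snoRNP and abundant nucleolar genes, 7 were lower and 0 higher (median -0.45), and of 17 genes of RNA polymerase I and Myc, 6 were lower and 0 higher (median -0.47; 11 and 0 at an unadjusted p under 0.05). Myc itself did not pass (log2 fold change 0.05 ± 0.64 SE, edgeR adjusted p = 0.975) and ran from 1.08 to 6.98 CPM in the old libraries. Of 49 ribosomal proteins of the large subunit, the structural parts that the 43 factors assemble, 13 were lower and 2 higher, with a median of -0.19. Rpl11, which enters with the 5S RNA under Rrs1 and Rpf2, had a log2 fold change of -0.48 (edgeR adjusted p = 0.0152) and Rpl5 one of -0.24 (0.105). Both were picked for that role after their values were seen, and no difference between lists was tested.

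**Figure D5:**
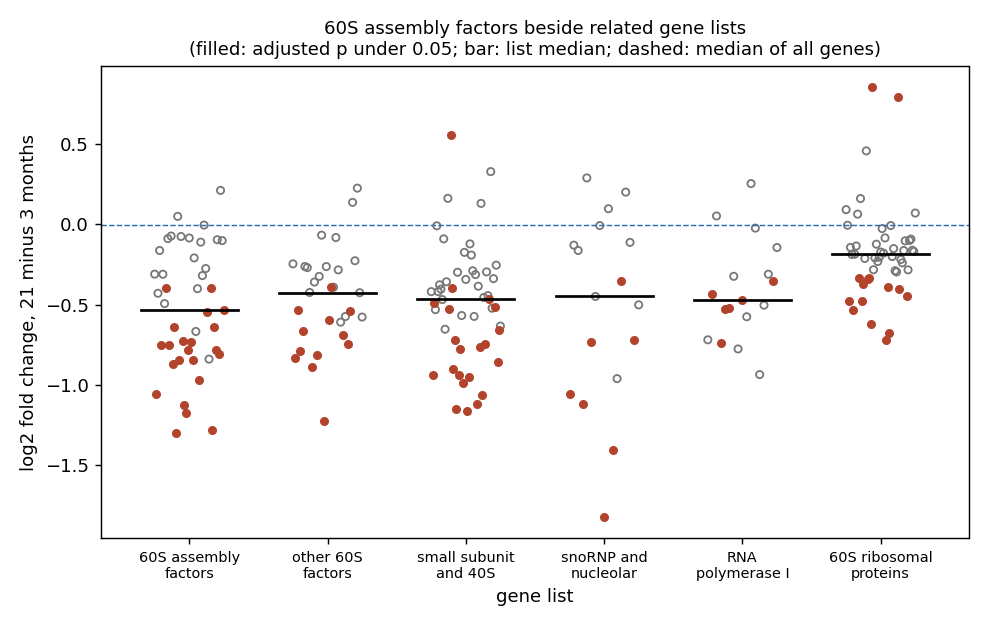
Each point is a gene with its log2 fold change on the vertical axis, by list on the horizontal axis; filled points passed the threshold, black bars are list medians and the dashed line is the median of all genes. The list medians run from -0.54 for the 60S assembly factors to -0.19 for the 60S ribosomal proteins.

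Between libraries of an age, the median coefficient of variation of the 43 genes was 10.2% at 3 months and 13.0% at 21 months. Single genes reached 28.2% at 3 months (Rpf2) and 33.7% at 21 months (Brix1). In the old group, replicate 2 held the lowest value for 23 of the 43 genes, replicate 1 for 12 and replicate 3 for 8. As a description over 43 genes of the same libraries, the rank correlation of the log2 fold change was 0.18 with transcript length and 0.27 with mean CPM.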

How the data were processed

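RNA was measured in 7 liver libraries, 4 of 3-month and 3 of 21-month C57BL/6 mice. Per the labels' protocols, poly(A) RNA was enriched on beads, fragmented, ligated to adapters and PCR-amplified, with strand kept and no molecular identifiers. TopHat, RSEM, edgeR and the build mm9 appear in the submitters' processing notes, with tool versions and roles not given in these sources. The authors deposited expected counts per gene (86.5% whole numbers), TPM (levels per length that sum to 1e+06) and FPKM, the last not used. Per the file headers, gene length and effective length are given too; the shortfall is the median of their difference over genes of at least 500 bases.

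Expected counts were rounded, filtered with filterByExpr (minimum count 10, total 15), scaled by TMM and tested by edgeR 4.0.16 (robust quasi-likelihood, age only) in R 4.3.3. An SE is the log2 fold change over the root of F. CPM use the same scaling. A count of 0 would allow 3 counts, 0.257 to 0.607 CPM by library; such limits cover counting error only. Alternatives were RLE and library-size scaling, DESeq2 1.42.0, limma 3.58.1 (voom with sample weights; log2(TPM + 0.5)), no filter, removal of the rows Rn45s and Lars2, the shortfall as covariate, a replicate block and leaving out each library.

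Same-numbered libraries of the 2 ages deviated together (correlation of deviations from age means over genes 0.11, 0.18 and 0.11 for numbers 1, 2 and 3). The numbers were therefore used as pairs in an alternative fit, the replicate block. The main fit was by age only and did not use this pairing. The pairing comes from the data and the shared numbers in the titles, and is weak: 3-month replicate 4 and 21-month replicate 1, which share no number, correlated at 0.16. Members, lists and steps were chosen with earlier results of these data known. Every sample value and full statistics were given for the 10 members with the smallest adjusted p that passed and for the cytoplasmic members, and from other lists at most 4 genes per direction; any other gene with such values was chosen after they were seen. Promoter windows are RefSeq's for GRCm38.p6.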

Additional observations from a re-analysis of the deposited data

Results flagged for a closer look

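In the 3-month group, each of the 43 genes was checked for a library far from the other 3, which chance alone marks in about 1 of 20 genes, and 3 of the 43 were marked. Ftsj3 stood at 41.4 CPM in replicate 1 against 47.7 to 48.1 CPM in the others. Gnl3 stood at 24.3 CPM in replicate 4 against 17.2 to 18.2 CPM, and Sdad1 at 14.6 CPM in replicate 1 against 18.9 to 19.6 CPM. Without those libraries the log2 fold changes were -0.92 for Ftsj3, -1.17 for Gnl3 and -0.89 for Sdad1 (edgeR adjusted p = 0.00245, 0.00298 and 0.00991).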

How the results depend on the processing

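Under the 16 alternatives, all 352 values of the 22 genes called lower stayed below 0, and 6 of the 22 passed in each one. The count lower was 15 to 23 without 1 library, against 2.2% to 7.91% of all genes (nucleolar 11 to 18, nuclear 3 to 4, cytoplasmic 1 in each) and the count higher was 0 in every alternative; the count of all changed genes was 580 to 1642 against 1274, and the median of the members -0.56 to -0.50. The nuclear count was 3 without 3-month replicates 2 or 4 or 21-month replicate 3, and all changed genes fell to 773, 834 and 745 without 3-month replicates 2, 3 and 4 and to 580 without 21-month replicate 3. The replicate block, on the 3 pairs of numbered libraries, gave 19 lower and a nuclear count of 3. Limma voom called 2101 genes. With the shortfall covariate the counts were 332 of all genes, 8 members, 6 nucleolar, 2 nuclear and 0 cytoplasmic. On log2(TPM + 0.5) the nuclear count was 2 and the median -0.39. The cause of these differences was not tested.

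Of 688 values of the 43 genes under these alternatives, 20 crossed 0, all of genes that did not pass. Pelp1 (-0.004) went to 0.0056 with RLE scaling, 0.021 with library-size scaling, 0.0057 with DESeq2, 0.014 with the rows Rn45s and Lars2 removed, 0.051 with the covariate, 0.11 in TPM, and 0.022, 0.0039 and 0.067 without 3-month replicate 3 and 21-month replicates 1 and 3. Ddx56 went to 0.030 with the covariate and 0.051 in TPM. In TPM, Nsa2 was at 0.031, Mrto4 at 6.5e-05, Las1l at 0.047, Eif6 at 0.048 and Sbds at 0.023. Without 1 library, Wdr12 ran from -0.21 to 0.084, Mrto4 from -0.16 to 0.066, Gnl3l from -0.0083 to 0.13 and Pelp1 from -0.047 to 0.067. Gnl3l went to -0.0083 and -0.0060 without 3-month replicate 2 and 21-month replicate 1, and without 21-month replicate 2 Wdr12 was at 0.084 and Mrto4 at 0.066. The 20 values lie within 1 SE of 0. Depth limits the low members most, since 1 library held 16 counts of Rpf2.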

Other observations

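Within the small-subunit list, Imp3 rose while its partners in one complex, Imp4 and Mphosph10, fell. Imp3 went from 25.1 to 37.1 CPM (log2 fold change 0.56, edgeR adjusted p = 0.0109), Imp4 from 22.0 to 16.7 CPM (-0.40, 0.0492) and Mphosph10 from 8.95 to 4.01 CPM (-1.15, 0.00322). Imp4 and Mphosph10 were named for this partnership after their values were seen. Among ribosomal proteins of the large subunit, Rpl39 (44.8 to 77.7 CPM, edgeR adjusted p = 0.000964) and Rpl26 (16.02 to 28.4 CPM, 0.0405) rose, against the direction of the 13 that fell. They are 2 of 49 such proteins, and Imp3 is 1 of 51 small-subunit factors. Over all genes tested 5.47% were higher, so calls in this direction are no more frequent in these lists than among all genes.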
